A study of Mus musculus with 4 samples.

Results

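The 7 genes described here encode cell-surface proteins with which an antigen-presenting cell instructs a T cell: Cd40, Cd83, Cd80, Cd86, Icosl, Cd274 and Pdcd1lg2. They were taken by symbol, and all 7 are among the 23284 genes in the files. The RNA came from mouse macrophages differentiated in culture out of bone marrow cells (BMDM). There were 4 groups of 1 library each: Spic-/- cells kept for 4 h with LPS at 100 ng/ml, Spic-/- cells without LPS, control (Spic+/+) cells with LPS for the same time, and control cells without it. LPS is the bacterial ligand of Toll-like receptor 4. Spic encodes Spi-C, a heme-inducible Ets-family transcription factor related to PU.1. Every culture, the controls included, had first received hemin for 18 h, so no group shows these genes without hemin. The sample titles call the knockout conditional, and strain, age and Cre driver are not given in the sources used here.

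A T cell that recognises peptide on an MHC molecule needs a second, costimulatory contact to become fully active. CD80 and CD86, the B7 proteins, give that contact through CD28 and are also bound by the inhibitory receptor CTLA-4, while ICOS ligand acts through ICOS. CD40 is a receptor of the TNF receptor family: the T cell's CD40 ligand engages it and drives the macrophage's own NF-kB signalling. CD83 marks mature antigen-presenting cells and keeps MHC class II and CD86 at the surface by opposing the ubiquitin ligase MARCH1. PD-L1, encoded by Cd274, and PD-L2, encoded by Pdcd1lg2, bind the checkpoint receptor PD-1 and restrain the T cell.

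Values are FPKM, fragments per kilobase of transcript scaled for library size by the authors, and may be compared between genes because they are per length. After scaling for relative depth, most low values (83.2% of 3175 low genes checked) fall on whole multiples of a step fitted for each gene. That step was taken as the value of 1 fragment. From this spacing each FPKM was worth an estimated 8.03 fragments per kilobase in knockout with LPS, 12.9 in knockout without LPS, 10.6 in control with LPS and 15.6 in control without LPS. With 1 library a group no test, standard error or p-value can be given. The 95% intervals below cover counting error only, from estimated fragments, and say nothing of differences between cultures. Ratios on the log2 scale are of (FPKM + 1), and a gene is counted as higher or lower at 2-fold or more, provided 1 of the compared libraries reached 5 FPKM. Spic stood at 80.8 FPKM with LPS and 14.98 without LPS in the knockout libraries, against 406 with LPS and 53.1 without LPS in control. Its RNA was lower in the knockout but not at 0, and the deleted exons are not named in the labels, so a gene-level value does not show what transcript remained.

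The macrophage label was borne out by its markers, all 10 of which reached 5 FPKM, with the CSF-1 receptor gene Csf1r between 265 and 371 FPKM. Dendritic cells carry the same costimulatory proteins and were looked for by other genes. Of their markers 8 of 10 were under 1 FPKM in every library, with Cd209a and Siglech at 0 throughout and Flt3 at 0.0224 FPKM at most. The exceptions were the integrin gene Itgax, at 5.97 FPKM at most, and Batf3. Batf3 stood at 1.23 FPKM with LPS and 1.38 without LPS in knockout, against 2.25 and 3.43 FPKM in control. Whether a small share of dendritic cells was present was not tested. The summed level of that list was 8.21 FPKM in knockout with LPS, 5.78 in knockout without LPS, 7.39 in control with LPS and 6.24 in control without LPS. Of the B cell markers 5 of 6 stayed under 1 FPKM in every library, and of the T and NK cell markers 6 of 7, with Cd3e, Ncr1 and Klrb1c at 0 and Cd4 the exception at 1.76 FPKM at most. Stromal markers did differ by genotype. Their summed level was 418 FPKM with LPS and 378 without LPS in knockout, against 751 and 734 FPKM in control, and their endothelial members Pecam1 and Cdh5 were at or near 0. In bulk RNA, fewer cells of a type and less RNA per cell cannot be told apart.

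**Figure D1:**
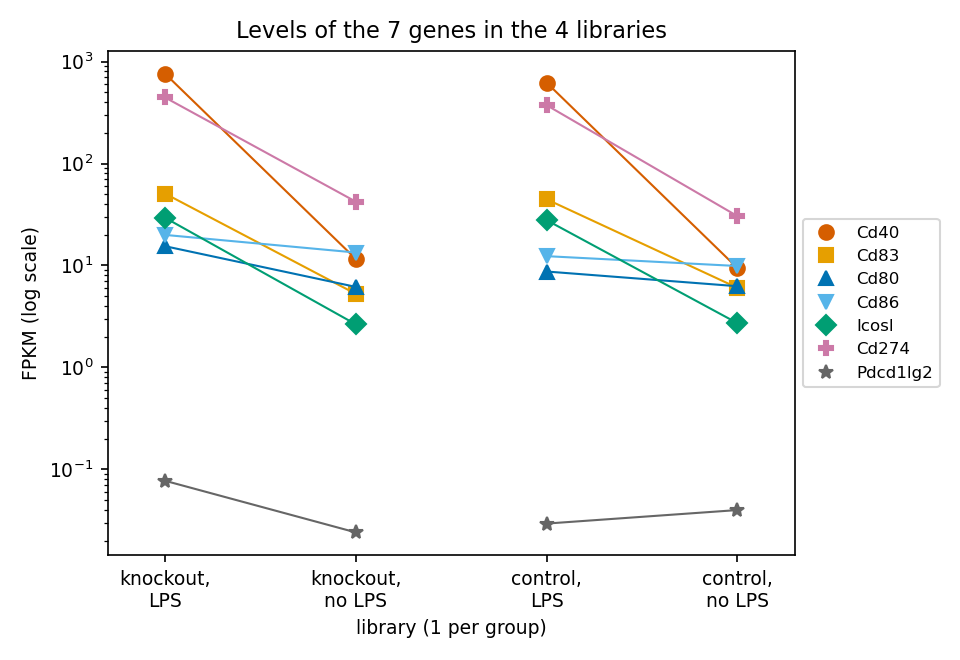
FPKM (log axis) of the 7 genes in the 4 libraries, knockout left of control and LPS left of no LPS, with 1 point per library and a line joining the libraries of a genotype. Cd40 and Cd274 stand highest with LPS at 374 FPKM or more, Cd80 and Cd86 lie closest together across libraries among the expressed genes, and Pdcd1lg2 lies below 0.1 FPKM throughout.

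LPS went with a new order of the 7 genes. Without LPS Cd274 stood first in both genotypes, at 42.3 FPKM in knockout and 30.5 in control, followed by Cd86, Cd40, Cd80, Cd83, Icosl and Pdcd1lg2. With LPS the order was Cd40, Cd274, Cd83, Icosl, Cd86, Cd80 and Pdcd1lg2, again in both genotypes. The order without LPS was not sharp everywhere: the counting intervals of Cd86 and Cd40 overlapped in each genotype, and so did those of Cd80 and Cd83. With LPS no neighbours overlapped in this way. The summed level of the 7 genes was 1320 FPKM with LPS and 81.3 without LPS in knockout, against 1089 and 64.9 FPKM in control. Cd40 and Cd274 together made up 91.3% of that sum with LPS and 66.2% without LPS in knockout, and 91.4% and 61.6% in control.

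Among the genes that receive signals or mark maturation, Cd40 showed the widest contrast. Cd40 lies on chromosome 2 at 165055627 to 165072948 (GRCm38, GENCODE vM21, plus strand). It stood at 760.3 FPKM in knockout with LPS and 11.6 in knockout without LPS, against 622 FPKM in control with LPS and 9.46 in control without LPS. Both LPS libraries thus lay far above both untreated ones. The FPKM ratio of LPS to no LPS was 65.6 in knockout (counting interval 59.5 to 72.5) and 65.7 in control (59.6 to 72.7). With log2 ratios of 5.92 and 5.90, Cd40 ranked 30th of 8098 genes in knockout and 34th of 8050 in control. By level it held place 177 of the 23284 genes with LPS and place 5150 without LPS in knockout, and places 188 and 5661 in control.

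Cd83 (chromosome 13, 43784775 to 43803132, plus strand) stood at 50.7 FPKM in knockout with LPS and 5.27 in knockout without LPS. In control it stood at 44.6 FPKM with LPS and 6.04 without LPS. Both LPS libraries were again above both untreated libraries. The ratio of LPS to no LPS was 9.63 in knockout (8.12 to 11.5) and 7.38 in control (6.35 to 8.57), or 3.04 and 2.69 on the log2 scale.

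CD80 and CD86 are encoded by the genes that differed least with LPS. Cd80 (chromosome 16, 38455561 to 38496335, plus strand) stood at 15.5 FPKM in knockout with LPS and 6.16 in knockout without LPS, against 8.72 FPKM in control with LPS and 6.26 in control without LPS. The knockout library with LPS was high, and the other 3 libraries lay between 6.16 and 8.72 FPKM. Its LPS to no LPS ratio was 2.51 in knockout (1.98 to 3.18) and 1.39 in control (1.10 to 1.77). Cd86 (chromosome 16, 36603869 to 36666081, minus strand) stood at 19.9 FPKM with LPS and 13.4 without LPS in knockout, and at 12.3 and 9.88 FPKM in control. Here the knockout library without LPS was above the control library with LPS, so treated and untreated libraries overlapped. The Cd86 ratio of LPS to no LPS was 1.49 in knockout (1.29 to 1.72) and 1.25 in control (1.07 to 1.46). Over all genes, FPKM summed to 819232 with LPS and 525348 without LPS in knockout, and to 736818 and 500123 in control. Whether the small LPS ratios of Cd80 and Cd86 hold after scaling to these sums was not tested. Cd86 exceeded Cd80 in every library, by 1.29-fold with LPS and 2.17-fold without LPS in knockout, and by 1.41-fold and 1.58-fold in control.

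Icosl, the ICOS ligand gene, had a wider contrast than the other costimulatory ligands of the B7 family. It lies on chromosome 10 at 78069302 to 78083913 (plus strand) and stood at 29.4 FPKM in knockout with LPS and 2.65 in knockout without LPS, against 27.8 FPKM in control with LPS and 2.72 in control without LPS. Both treated libraries lay well above both untreated ones. The ratio of LPS to no LPS was 11.1 in knockout (8.86 to 14) and 10.2 in control (8.41 to 12.7). Icosl was thus the lowest of the expressed members without LPS and stood above both Cd80 and Cd86 with LPS.

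The checkpoint ligand genes Cd274 and Pdcd1lg2 are neighbours on chromosome 19, on the plus strand, with 22.8 kb between the end of Cd274 (29367455 to 29388095) and the start of Pdcd1lg2 (29410919 to 29471161). Their levels were far apart. Cd274 stood at 445 FPKM in knockout with LPS and 42.3 in knockout without LPS, against 374 FPKM in control with LPS and 30.5 in control without LPS. Both LPS libraries were above both untreated ones, with ratios of 10.5 in knockout (10 to 11.1) and 12.3 in control (11.6 to 12.9). Pdcd1lg2 stood at 0.0773 FPKM in knockout with LPS, 0.0241 in knockout without LPS, 0.0294 in control with LPS and 0.0399 in control without LPS. These values are 2, 1, 1 and 2 times a shared smallest step. By the annotated length that step would be only 0.448 of a fragment, so the scale in fragments is uncertain for this gene. By annotated length, 3 fragments were worth 0.259, 0.161, 0.197 and 0.134 FPKM in the same order, and the values stay below 3 fragments also where 1 step is taken as 1 fragment. No ratio is given for it: Pdcd1lg2 RNA was not detectable above this floor in any library.

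The promoters of these neighbours and of Icosl are shown because the 3 genes differ so much in level. Their contrast with LPS was similar for Cd274 and Icosl, at 10.5-fold and 11.1-fold in knockout and 12.3-fold and 10.2-fold in control. The windows run from 250 bases before to 50 bases after the RefSeq start of the gene (GRCm38.p6), and are written 5′ to 3′ on the strand of the gene. Promoters were matched for 4 of the 7 genes, Cd80, Cd274, Pdcd1lg2 and Icosl. Capitals mark matches, on either strand, to the kappaB consensus of NF-kB, to GAAANNGAA of the interferon-stimulated response element, to TTCNNNGAA of the STAT-bound GAS element, and to AGGAAGT or GAGGAA, letters bound by Ets factors of the PU.1 type.
Cd274 at chr19:29367188-29367487: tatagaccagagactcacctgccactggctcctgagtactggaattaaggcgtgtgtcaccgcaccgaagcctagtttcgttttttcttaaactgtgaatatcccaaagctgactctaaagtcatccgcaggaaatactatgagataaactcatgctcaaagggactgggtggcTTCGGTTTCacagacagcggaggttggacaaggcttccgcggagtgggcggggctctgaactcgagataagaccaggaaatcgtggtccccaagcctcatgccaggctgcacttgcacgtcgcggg
Pdcd1lg2 at chr19:29410669-29410968: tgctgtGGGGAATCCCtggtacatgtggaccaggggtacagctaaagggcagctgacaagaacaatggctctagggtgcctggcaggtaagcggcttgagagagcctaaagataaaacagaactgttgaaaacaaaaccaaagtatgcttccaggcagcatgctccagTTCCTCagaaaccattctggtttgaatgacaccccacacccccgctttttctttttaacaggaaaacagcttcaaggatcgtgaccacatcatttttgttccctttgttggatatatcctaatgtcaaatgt
Icosl at chr10:78069118-78069417: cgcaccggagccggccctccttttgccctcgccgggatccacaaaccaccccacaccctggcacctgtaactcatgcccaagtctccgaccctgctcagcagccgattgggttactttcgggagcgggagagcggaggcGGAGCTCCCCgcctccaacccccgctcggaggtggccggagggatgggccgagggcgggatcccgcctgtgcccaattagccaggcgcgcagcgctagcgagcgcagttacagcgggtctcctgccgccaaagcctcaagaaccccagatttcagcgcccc

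In these windows Cd274 held a GAAANNGAA match on the opposite strand, starting 76 bases before that start. Pdcd1lg2 held a kappaB match, GGGGAATCCC, which reads as a match on both strands, and a GAGGAA match on the opposite strand. Icosl held a kappaB match on the opposite strand. The Cd80 window had no match to any of the 5 motifs. It lay at chr16:38458683-38458982, inside the gene and downstream of its GENCODE start at 38455561. The letters before that GENCODE start were therefore not searched. Of 32851 mouse promoters of this length, 8.46% held a kappaB match, 8.56% GAAANNGAA, 8.30% TTCNNNGAA, 9.35% AGGAAGT and 28.3% GAGGAA. These matches describe letters only and are not binding sites measured here. Among the 3 shown, the gene with RNA near 0 and a gene with an 11.1-fold contrast in knockout both held kappaB letters.

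Counted together, 6 of the 7 genes reached 5 FPKM in the LPS comparisons and Pdcd1lg2 did not. In knockout 5 of these 6 met the 2-fold rule upward with LPS and none downward, where 13.7% of 8098 genes were higher and 7.74% lower. In control 4 of 6 were higher and none lower, where 12.3% of 8050 genes were higher and 6.50% lower. The gene that made the difference was Cd80, at 1.20 on the log2 scale in knockout and 0.42 in control. With a pseudocount of 5 FPKM the knockout value of Cd80 was 0.87 and the count became 4. The median log2 ratio of the 6 genes was 3.05 in knockout and 2.82 in control, against 0.12 and 0.11 over all genes counted. Higher genes made up 63.9% of all calls in knockout and 65.5% in control as deposited. Scaling to upper quartiles instead gave 51.3% and 52.9%, with all-gene medians of −0.06 and −0.07. Members' values are of the deposited FPKM unless a scaling is named, and are not corrected for that shift. After upper-quartile scaling the LPS log2 ratio of Cd80 was 1.03 in knockout and 0.27 in control. That of Cd86 was 0.37 and 0.14, against 0.54 and 0.29 as deposited. In the genotype comparisons the share of higher calls was 55.2% with LPS and 54.3% without LPS as deposited, and 44.6% and 45.5% under that scaling.

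**Figure D2:**
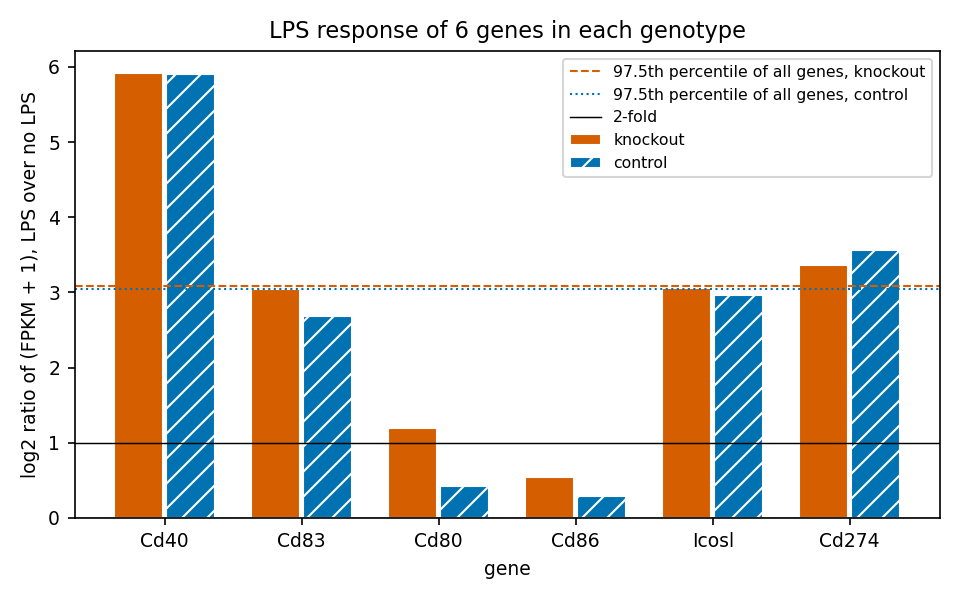
Log2 ratio of (FPKM + 1) of LPS over no LPS (y axis) for 6 genes, knockout bars left of control bars, 1 library per group and therefore without error bars. Against lines for 2-fold and for the upper end of the central 95% of all genes (dashed, 3.09 in knockout; dotted, 3.04 in control), Cd40 and Cd274 exceed both in each genotype and Cd80 passes 2-fold in knockout alone.

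The LPS response of Cd80 was the one that differed most between genotypes among the 7 genes. Its log2 ratio was 0.78 higher in knockout than in control, place 57 of 8272 genes by this difference, whose central 95% ran from −0.49 to 0.47. As FPKM, the knockout ratio was 1.80 times the control ratio, with a counting interval of 1.3 to 2.5. Cd83 followed at 0.35 on the log2 scale (1.3 times, 1.04 to 1.63) and Cd86 at 0.25 (1.19 times, 0.968 to 1.47). Icosl differed by 0.10 (1.08 times, 0.804 to 1.46) and Cd40 by 0.02 (0.998 times, 0.869 to 1.15). For Cd274 the response was smaller in knockout on both scales, at −0.21 on the log2 scale and 0.859 times as FPKM (0.8 to 0.922). None of the 6 differences reached 2-fold, and without replicates it was not tested whether any of them exceeds the variation between cultures.

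With LPS, knockout and control differed most at the B7 genes. Cd80 stood at 15.5 FPKM in knockout and 8.72 in control, a ratio of 1.77 (1.41 to 2.22), and Cd86 at 19.9 and 12.3 FPKM, a ratio of 1.62 (1.39 to 1.89). On the log2 scale they were at 0.76 and 0.65, places 90 and 149 of 7509 genes, and both lay above the central 95% of all genes, which ended at 0.60. Cd40 had a knockout to control ratio of 1.22 (1.20 to 1.25), Cd274 of 1.19 (1.16 to 1.22), Cd83 of 1.14 (1.04 to 1.24) and Icosl of 1.05 (0.946 to 1.17). No member was 2-fold apart, where 0.493% of genes were at least 2-fold higher and 0.400% lower. At 1.5-fold 2 of 6 were higher and none lower, where 2.86% of genes were higher and 1.69% lower. The 1.5-fold call of Cd86 was lost after upper-quartile scaling (0.56), and those of Cd80 (0.58) and Cd86 (0.52) with a pseudocount of 5 FPKM. All 6 log2 ratios were above 0, as were 68.1% of all genes, and after upper-quartile scaling that of Icosl was −0.01. Under the same scaling Cd40 went from 0.29 to 0.20 and Cd274 from 0.25 to 0.16, each by more than its counting interval. The narrow intervals of these genes therefore do not cover the choice of scaling.

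Without LPS the B7 genes did not stand together. Cd86 stood at 13.4 FPKM in knockout and 9.88 in control, a ratio of 1.36 (1.17 to 1.57), whereas Cd80 was nearly level at 6.16 and 6.26 FPKM, a ratio of 0.984 (0.766 to 1.26). Cd274 had the highest ratio, 1.39 (1.3 to 1.48), with 42.3 FPKM in knockout and 30.5 in control, place 238 of 7762 genes. Cd40 had a ratio of 1.23 (1.07 to 1.41) and Cd83 of 0.871 (0.702 to 1.07). Icosl was below 5 FPKM in both libraries and had a ratio of 0.973 (0.731 to 1.3). None of the 5 members counted was 2-fold apart, where 0.490% of genes were higher and 0.412% lower, nor 1.5-fold apart, where 1.75% were higher and 1.37% lower. The median log2 ratio of the members was 0.27 with LPS (6 genes) and 0.27 without LPS (5 genes), against 0.09 and 0.07 over all genes.

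**Figure D3:**
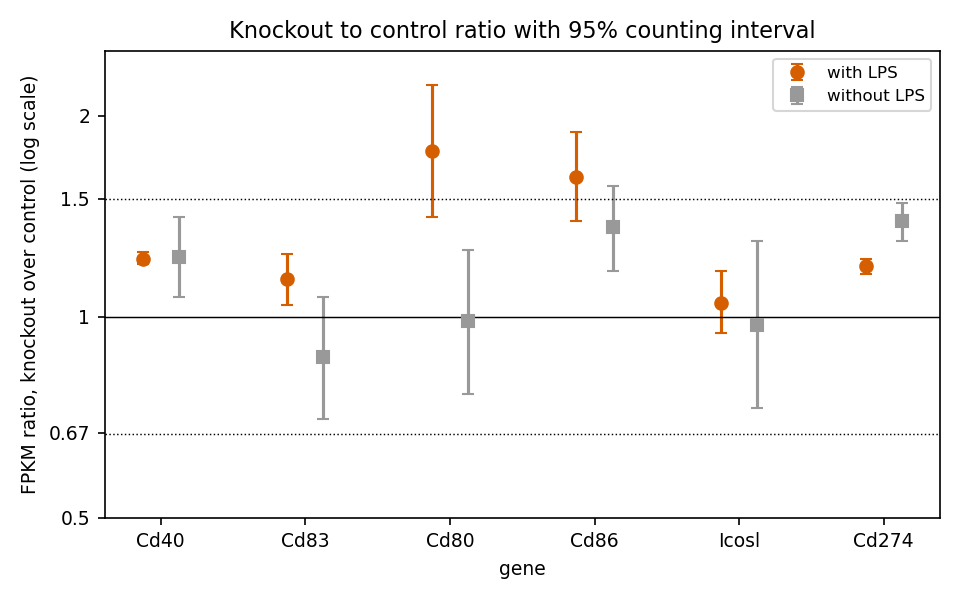
FPKM ratio of knockout over control (log axis) for 6 genes, with LPS left of without LPS. Points are ratios of 1 library to 1, bars are 95% counting intervals that leave out variation between cultures, dotted lines mark 1.5-fold, and Cd80 and Cd86 with LPS lie above the upper one at 1.77 and 1.62.

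The same knockout and control libraries differed in stromal RNA. Of 8 stromal markers at 5 FPKM or more, 7 were at least 1.5-fold lower in knockout in each LPS state, where 1.69% of all genes were with LPS and 1.37% without LPS, with a list median of −0.69 with LPS and −0.80 without LPS. The smooth muscle actin gene Acta2 stood at 118 FPKM with LPS and 109 without LPS in knockout, against 243 and 237 FPKM in control. The macrophage list was mixed. Its medians were 0.23 with LPS and 0.29 without LPS, and its summed level was 9533 FPKM with LPS and 6380 without LPS in knockout, against 10829 and 8245 FPKM in control. The lysozyme gene Lyz2 was more than 1.5-fold lower in knockout, at 3419 FPKM with LPS and 4014 without LPS, against 5620 and 6340 FPKM in control. The part of these marker differences in the genotype ratios was not tested.

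The patterns most like those of the members over the 4 libraries were found by the Euclidean distance between log2(FPKM + 1) profiles, each centred on its own mean, among 7666 named genes. Nearest to Cd40 were Bcl2a1d, of a family of near-identical survival genes whose values are uncertain, and the nitric oxide synthase gene Nos2, at distances of 0.14 and 0.15. Nos2 stood at 74.2 FPKM with LPS and 0.143 without LPS in knockout, and at 53.8 and 0.0338 FPKM in control, so its likeness to Cd40 holds on this scale and not for the FPKM ratio. Nearest to Cd274 were the tyrosine kinase gene Src (0.05) and Phlda1 (0.11), and nearest to Icosl the glycerol kinase gene Gyk (0.05) and the transcription factor gene Tfec (0.06). Cd83 was nearest to Hivep3 (0.06) and Gpd2 (0.12), Cd80 to Apbb2 (0.14) and Larp1b (0.16), and Cd86 to Mxd3 (0.11) and Slc25a22 (0.12). Hivep3 stood at 10.2 FPKM with LPS and 0.307 without LPS in knockout, and at 8.60 and 0.435 FPKM in control. Its likeness to Cd83 likewise does not hold for the FPKM ratio. Apbb2 stood at 10.1 FPKM with LPS and 4.31 without LPS in knockout, against 6.41 and 4.09 FPKM in control, so like Cd80 it was highest in knockout with LPS. The near-zero profile of Pdcd1lg2 was matched by flat genes, Nvl and Grpel2, at 0.01 each.

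Further genes of these pathways were followed as lists, whose 2-fold counts stand against the shares over all genes given above: with LPS 13.7% higher and 7.74% lower in knockout, and 12.3% and 6.50% in control. Among the other B7 family genes, Vsir, which encodes the checkpoint protein VISTA and is listed as 4632428N05Rik, was the only gene of 6 at 5 FPKM. It went the other way from Cd274: 22.3 FPKM with LPS and 64.3 without LPS in knockout, and 18.1 and 56.3 FPKM in control, with log2 ratios of −1.49 and −1.58. Without LPS Vsir therefore stood above Cd274 in both genotypes, and with LPS far below it. Cd276 did not pass 2.73 FPKM, and Vtcn1, Btn1a1 and Btn2a2 were listed at 0 in all libraries. Of 7 TNF-type costimulatory ligand genes, 2 reached 5 FPKM and both were higher with LPS: Tnfsf9, the 4-1BB ligand gene, at 221 FPKM with LPS and 8.24 without LPS in knockout and 281 and 6.32 in control, and Tnfsf15 with log2 ratios of 5.34 and 4.81. The OX40 ligand gene Tnfsf4 did not pass 4.31 FPKM.

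Of the other inhibitory ligand genes, 7 of 10 reached 5 FPKM, with 6 of these at 2-fold or more above the untreated level in knockout and 5 in control, none below. The median log2 ratio was 1.57 in knockout and 1.12 in control. Cd200, the ligand gene of an inhibitory myeloid receptor, stood at 50.2 FPKM with LPS and 4.55 without LPS in knockout and 48.5 and 5.77 in control. The poliovirus receptor gene Pvr had log2 ratios of 2.11 and 1.76, and the "don't eat me" gene Cd47 1.03 and 1.12. In the list of CD2, SLAM and adhesion genes 3 of 7 were higher in each genotype (medians 0.89 and 0.88), among them Icam1, the LFA-1 ligand gene, at 1057 FPKM with LPS and 66.7 without LPS in knockout and 892 and 49.1 in control. In that list Slamf8 and Slamf9 were at least 1.5-fold higher in knockout in each LPS state, where 2.86% of all genes were with LPS and 1.75% without LPS. Slamf8 stood at 32.4 FPKM with LPS and 21.4 without LPS in knockout, against 17.6 and 11.7 FPKM in control. Slamf9 stood at 204 and 152 FPKM in knockout, against 115 and 88.3 FPKM in control.

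In the list of CD40 signalling genes, 8 of 11 met the 2-fold rule upward with LPS in knockout and 7 in control. None was lower, and the medians were 1.5 and 1.36. The treatments named are hemin and LPS, without CD40 ligand, and Cd40lg was at 0 in every library. A part of CD40 itself in these contrasts was not tested. Traf1, an adaptor of CD40, stood at 354 FPKM with LPS and 18.0 without LPS in knockout and 225 and 8.25 in control. The genes of the noncanonical NF-kB subunits, Nfkb2 (3.33 and 3.37) and Relb (2.02 and 2.21), were higher with LPS in knockout and control. Map3k14, which encodes their activating kinase NIK, had ratios of −0.94 and −0.89, and Traf3, which encodes the adaptor that holds NIK in check, −0.09 and −0.05. Of 8 genes of interferon gamma signalling and PD-L1 induction, 4 were higher in knockout and 3 in control (medians 0.92 and 0.77), including Jak2 (3.61 and 3.67) and Irf1 (3.21 and 3.21).

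Among 6 genes that act on the turnover of these proteins, Marchf1, listed as March1, alone met the 2-fold rule upward with LPS, at 38.5 FPKM with LPS and 15.1 without LPS in knockout and 52.2 and 14.5 in control. The PD-L1 stabiliser gene Cmtm6 was at 51.0 and 31.7 FPKM in knockout and 42.0 and 27.5 in control, and the list medians were 0.04 in knockout (5 genes at 5 FPKM) and 0.00 in control (6 genes). The T cell receptors of the ligands served as a negative reference. None of the 8 genes reached 5 FPKM and 7 stayed under 1 FPKM in every library, with Ctla4, Icos and Cd40lg at 0 throughout. The exception was Cd28, at 0.573 FPKM with LPS and 4.96 without LPS in knockout, and 0.597 and 4.44 FPKM in control. Among the T cell markers, Cd3e, Cd3d and Cd3g did not pass 0.116 FPKM, and Cd4 stood at 1.76 FPKM with LPS and 1.58 without LPS in knockout, against 0.849 and 1.24 FPKM in control.

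**Figure D4:**
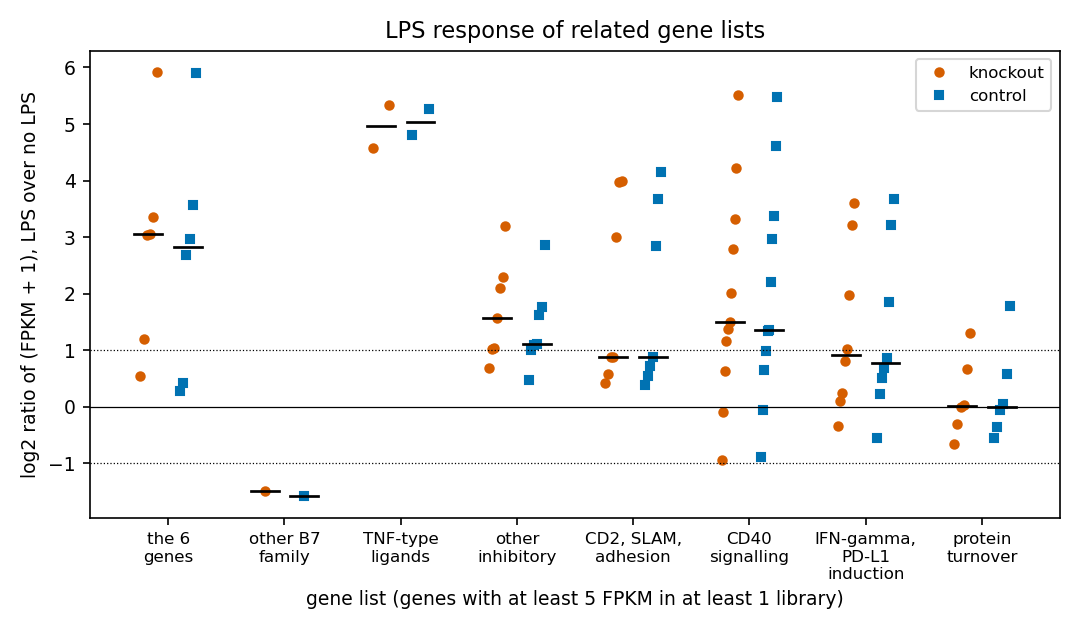
Log2 ratio of (FPKM + 1) of LPS over no LPS (y axis) for the 6 expressed members and for the genes of 7 related lists that reached 5 FPKM in a library, knockout circles left of control squares and black lines at the medians. Each point is 1 gene, with 1 library per group: Vsir is the single point of the other B7 family, at −1.49 and −1.58, while the TNF-type ligands lie at 4.58 or higher.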

How the data were processed

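The authors deposited gene-level FPKM values, one table for each library, over 23284 shared genes, with no read counts. Per the submitters' processing notes, the tools were Cuffnorm 2.2.1, TopHat2 2.0.13, SAMtools 0.1.19 and also Bowtie2 2.2.3, and the build mm10; roles and settings are not listed there. Per the labels' protocols, libraries were made with a TruSeq stranded mRNA kit. The hemin dose is given as 40 µM in the protocol and as 40 mM in the sample descriptions. Which annotation was used is not given in these sources.

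Single libraries were compared by the log2 ratio of (FPKM + 1) in Python 3.11.15 and pandas 2.3.3. No test was possible. Relative depth came from the most frequent ratio of values under 0.3 FPKM. After scaling by this depth, 2641 of 3175 genes under 0.6 FPKM (83.2%) were whole multiples of a step within 0.02, with divisors up to 6. The step was fitted for each gene, and the depth came from low values too, so this share is no independent check. The scale in fragments came from 355 genes with a single GENCODE vM21 transcript. The line chosen was the one on which most of these genes lay, with an effective length of the exonic length less 205 bases. On it lay 169 genes, at a tolerance narrower than the 0.02 above. Because the line was picked by this count, the count is no independent check. Fragments of a member use its shortest principal transcript, so intervals are approximate. Intervals of ratios are exact (Clopper-Pearson) on estimated fragments, those of levels exact Poisson, and those of a ratio of ratios normal on the log scale. Fold counting and depth were tried on simulated libraries of whole Poisson counts without variation between cultures. Such libraries cannot show how well either works on the real values.

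Related lists held the genes fixed with the design and were matched by symbol or RefSeq synonym. For each member the 2 genes of nearest profile were named, leaving out unnamed and small RNA genes. The members, lists and tests were chosen with earlier results of these data known. The planned comparison of protein sequences was not made. Alternatives were other pseudocounts, scalings, minimums and thresholds.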

Additional observations from a re-analysis of the deposited data

Results flagged for a closer look

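For 3 of the 6 expressed genes the knockout to control ratio had opposite signs with and without LPS, and the difference was not tested, since each ratio rests on 1 library a side. Cd80 was at 0.76 with LPS and −0.02 without LPS on the log2 scale, a difference of 0.78. Cd83 was at 0.18 with LPS and −0.17 without LPS, a difference of 0.35. Icosl was at 0.07 with LPS and −0.03 without LPS, a difference of 0.10, and its counting intervals of the ratio included 1 in both states. That of Cd80 included 1 without LPS (0.766 to 1.26) and not with LPS (1.41 to 2.22), and likewise that of Cd83 (0.702 to 1.07 without LPS and 1.04 to 1.24 with LPS). After upper-quartile scaling Icosl was below 0 in both states (−0.01 and −0.09).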

How the results depend on the processing

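The counts of members at least 2-fold higher with LPS were 4 or 5 in knockout and 4 in control under all 9 alternatives: pseudocounts of 0.1 and 5 FPKM, median-ratio and upper-quartile scaling, minimums of 1 and 20 FPKM or none, and thresholds of 1.5-fold and 3-fold. Between genotypes no member was counted under any of them, except that 2 were at the 1.5-fold threshold with LPS. No response differed by 2-fold between genotypes under the 4 pseudocounts and scalings. Of 120 single values of the 6 expressed members recomputed under those 4, 104 moved by less than their counting interval, 16 moved by more, and no called value changed sign. The values that moved most were those of Icosl, whose log2 ratio with LPS in knockout was 3.42 with a pseudocount of 0.1 FPKM and 2.17 with 5 FPKM, against 3.06. Median-ratio factors were 1.001, 1.006, 1.002 and 1.006, close to 1. At this depth Pdcd1lg2 lay below 3 fragments in every library, so no ratio is given, and the counting interval of the Icosl genotype ratio included 1 in both LPS states. Counts over all genes moved by over 1.5 times with the threshold and some other settings. At 3-fold 620 were higher and 213 lower with LPS in knockout, 570 and 177 in control, against 1109 and 627 in knockout and 992 and 523 in control at 2-fold. At 1.5-fold the counts were 2054 and 1375 in knockout and 1860 and 1219 in control. With a pseudocount of 5 FPKM 263 were lower in knockout and 229 in control, and with a minimum of 20 FPKM 210 and 183. Between genotypes 37 genes were higher and 30 lower with LPS, and 38 and 32 without LPS. These counts became 11 and 18 with LPS and 17 and 16 without LPS at 3-fold, and 215 and 127 with LPS and 136 and 106 without LPS at 1.5-fold. A pseudocount of 5 FPKM gave 21 higher with LPS, and 19 higher and 21 lower without LPS. A minimum of 20 FPKM gave 23 higher with LPS and 25 without LPS, and a minimum of 1 FPKM or none gave 51 lower with LPS. No paired analysis was possible because each group has 1 library.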
